A study of Mus musculus with 12 samples.

Results

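Super-enhancers (SEs), the clusters of closely spaced enhancers near cell identity genes, were examined at the genes of the 3 core pluripotency transcription factors, Pou5f1 (encoding OCT4), Sox2 and Nanog, in mouse embryonic stem cells (ESCs) with and without the nuclear receptor ESRRB. Within SEs, the deposited tables list persistently unmethylated (PU) subregions, whose CpGs are unmethylated in ESCs and in epiblast stem cells (EpiSCs), and differentially methylated (DM) subregions, unmethylated in ESCs and methylated in EpiSCs. The methylated interstitial stretches of SEs that the paper also defines are not in them. Sums and ranks of SEs given here therefore cover the PU and DM parts only. Every PU or DM subregion that overlapped a window of 400 kb around Pou5f1 or Sox2, or of 410 kb around Nanog, was taken whatever its signal. This gave 19 of the 671 subregions, 8 of them PU and 11 DM, in 6 of the 223 SEs. Pou5f1 had 3 subregions in 1 SE, Sox2 had 6 in 2 SEs and Nanog had 10 in 3 SEs.

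The study compared Esrrb -/- ESCs, labelled as an Esrrb knock-out, with control Esrrb fl/fl ESCs, labelled wild-type, which carry floxed Esrrb alleles. Both were grown in serum with LIF. Chromatin immunoprecipitation and sequencing (ChIP-seq) was done for MED1, for H3K27ac and without antibody (input), with 2 replicates each, so that 12 libraries were described. The deposited values are 1 RPKM (reads per kilobase, scaled to a read total that is not stated) per subregion for each mark and genotype, pooled over the replicates. There is therefore no replicate check for any difference given here, no test was made, and the 95% intervals cover counting error only. No RNA or protein was measured in these tables, so neither the loss of ESRRB nor the identity of the cells was checked from them.

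OCT4, SOX2 and NANOG bind together at ESC enhancers, including those of their own genes, and so maintain each other's expression. MED1 is a subunit of Mediator, the complex that links transcription factors bound at enhancers to RNA polymerase II, and it is dense over SEs. H3K27ac is the acetylation of histone H3 that marks active enhancers and promoters. ESRRB is an orphan nuclear receptor of the naive pluripotency network that binds a single extended receptor site as a monomer, and Esrrb is lower in primed cells such as EpiSCs.

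The core of that site, AAGGTCA, was searched on both strands of the mm9 sequence because it is the letter string through which ESRRB could contact these subregions directly. It occurred 8 times, in 6 of the 19 subregions (31.6%), compared with 236 of all 671 (35.2%). By length, 12.5% of all subregions under 500 bp held it, 34.8% of those from 500 to 1500 bp and 57.3% of those over 1500 bp. None lay in the Pou5f1 subregions, 4 lay in the SE far downstream of Sox2, and 4 lay at Nanog, 1 of them far upstream and 3 downstream within Slc2a3. The same letters are read by other nuclear receptors such as NR5A2, and a match is not a measured binding site. Of these matches, 7 are printed 5′ to 3′ on the strand that carries them, with the core in capitals and the position of the core in mm9.
Sox2 DM +106.4 kb, first, chr3:34655508-34655514, minus strand: gggtcatttcAAGGTCAcctttgacta
Sox2 DM +106.4 kb, second, chr3:34655949-34655955, minus strand: ctgacaaatgAAGGTCAcccctcagaa
Sox2 PU +107.9 kb, chr3:34656882-34656888, minus strand: taacttactcAAGGTCAgacgtgcggg
Nanog DM -44.2 kb, chr6:122613698-122613704, plus strand: tagcaagaggAAGGTCAgactttcaaa
Nanog DM +59.6 kb, first, chr6:122716664-122716670, plus strand: ctgtaggttcAAGGTCAgcctggtctg
Nanog DM +59.6 kb, second, chr6:122717093-122717099, minus strand: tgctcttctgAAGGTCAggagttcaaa
Nanog DM +62.9 kb, chr6:122720564-122720570, minus strand: ctgtgaattcAAGGTCAtcctagtcta

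Subregions are named by gene, type and the distance of their midpoint from the annotated gene start, with upstream negative. All 3 genes lie on the plus strand, Pou5f1 at chr17:35642982-35647721, Sox2 at chr3:34548927-34551383 and Nanog at chr6:122657507-122664651 (mm9). The log2 fold change is that of RPKM + 1 in Esrrb -/- over Esrrb fl/fl ESCs. Behind the RPKM values stood 10 to 3908 MED1 reads per subregion in Esrrb fl/fl and 10 to 1570 in Esrrb -/- ESCs, and 42 to 4878 and 27 to 8019 H3K27ac reads, as recovered from the values.

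The 3 loci differed in MED1. With the reads of its subregions summed, Sox2 had less MED1 in Esrrb -/- ESCs, at 953 RPKM compared with 1398 (log2 fold change -0.55, with a 95% counting interval from -0.61 to -0.49). Pou5f1 had more as deposited, at 1304 RPKM compared with 1044 (0.32, 0.19 to 0.45). Nanog was close to level, at 1007 RPKM compared with 1060 (-0.07, -0.15 to 0.0049), but its subregions ranged from -0.92 to 0.88. All 3 loci had more summed H3K27ac in Esrrb -/- ESCs, at 1161 compared with 733 RPKM at Pou5f1 (0.66, 0.59 to 0.73), 828 compared with 530 RPKM at Sox2 (0.64, 0.61 to 0.68) and 820 compared with 625 RPKM at Nanog (0.39, 0.34 to 0.44). The Nanog sum was unevenly made, as the median H3K27ac change of its subregions was -0.046, in a range from -0.40 to 0.98. By SE the H3K27ac change was 0.24 at Nanog -44.2 kb, 0.18 in the SE that adjoins Nanog and 0.63 in the SE within Slc2a3.

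These directions depend on how the libraries were scaled, which the sources used here do not state in full. The 671 subregions, 832 kb in all, held 291893 of the 424897 MED1 reads that the values imply as a total in Esrrb fl/fl ESCs. In Esrrb -/- ESCs they held 130733 of 230504. Those totals are thus not ones of whole libraries, and a MED1 change shared by the counted regions may not show in the deposited values. Scaling the recovered reads to mapped read pairs would lower every MED1 log2 fold change by about 0.77 and every H3K27ac one by about 0.33. Scaling them to the summed reads of the 671 subregions would raise MED1 by 0.28 and lower H3K27ac by 0.48. On the first of these scales the summed MED1 change was -0.45 at Pou5f1, -1.32 at Sox2 and -0.84 at Nanog, and on the other it was 0.60, -0.28 and 0.20. The sign at Sox2 was thus negative on all 3 scales, whereas the signs at Pou5f1 and Nanog were not the same on all 3. For H3K27ac the sums stayed positive at Pou5f1 and Sox2, and at Nanog the change was 0.065 and -0.089. Values of single subregions are given as deposited, and the direction of each holds on that scale unless others are named.

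Differences between subregions of the same libraries are free of this choice. The MED1 change at Sox2 was lower than that at Pou5f1 by -0.87 (-1.02 to -0.73) and lower than that at Nanog by -0.48 (-0.58 to -0.38), and Nanog was below Pou5f1 by -0.39 (-0.55 to -0.24). In H3K27ac, Sox2 differed from Pou5f1 by -0.02, with an interval from -0.10 to 0.061, and from Nanog by 0.25 (0.20 to 0.31), while Nanog was below Pou5f1 by -0.27 (-0.36 to -0.19). The sums of Sox2 and Pou5f1, at the extremes for MED1, were therefore not separated beyond counting error in H3K27ac. The Sox2 sum pools 2 unlike SEs, however, at 0.88 (0.83 to 0.93) over the gene and 0.38 (0.33 to 0.44) downstream. Pou5f1, at 0.66 (0.59 to 0.73), lay between them.

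**Figure D1:**
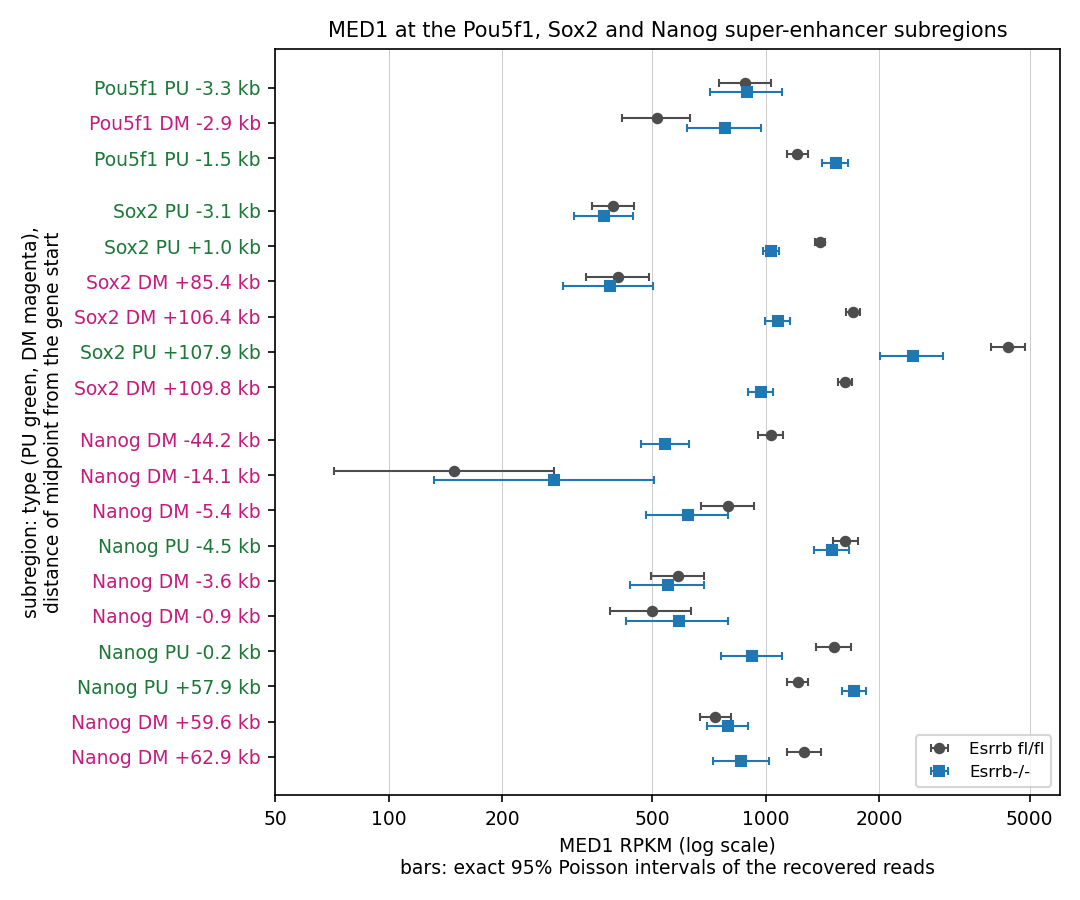
MED1 RPKM (x axis, log scale) in Esrrb fl/fl (grey circles) and Esrrb -/- ESCs (blue squares) at the 19 subregions (y axis), with exact 95% Poisson intervals of the recovered reads. The grey points lie to the right of the blue ones at all 6 Sox2 subregions and to the left at all 3 Pou5f1 subregions, with overlapping intervals at several.

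The Pou5f1 SE covers 3 subregions upstream of the gene, none of which overlaps an annotated gene, in the stretch where the distal and proximal enhancers of Pou5f1 are described. The longest of them, the PU subregion at -1.5 kb (chr17:35640614-35642407, 1794 bp), held 78.5% of the MED1 reads of the locus in Esrrb fl/fl ESCs. Its MED1 was 1212 RPKM in Esrrb fl/fl and 1529 RPKM in Esrrb -/- ESCs (0.34, 0.19 to 0.48), and its H3K27ac was 731 and 1307 RPKM (0.84, 0.75 to 0.92). As deposited both marks were thus higher in Esrrb -/- ESCs, but MED1 was -0.44 when scaled to mapped read pairs, and when scaled to the summed reads of the 671 subregions MED1 (0.61) was above H3K27ac (0.36). It held 2 matches to GGGTGTG, the core letters of the KLF site, and none to the ESRRB core.

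The other Pou5f1 subregions are short neighbours further upstream. At the PU subregion at -3.3 kb (chr17:35639457-35639876, 420 bp), MED1 was 882 and 890 RPKM (0.014, -0.38 to 0.40) and H3K27ac was 800 and 950 RPKM (0.25, 0.06 to 0.44). At the DM subregion at -2.9 kb (chr17:35639909-35640349, 441 bp), MED1 was 513 RPKM in Esrrb fl/fl and 779 RPKM in Esrrb -/- ESCs (0.60, 0.15 to 1.04), from 96 and 79 reads. Its H3K27ac was 682 and 770 RPKM (0.18, -0.03 to 0.38). No Pou5f1 subregion, PU or DM, had lower MED1 in Esrrb -/- ESCs as deposited, compared with 58% of all 671 subregions that had. Scaled to mapped read pairs, all 3 were below 0, at -0.76 (-3.3 kb), -0.17 (-2.9 kb) and -0.44 (-1.5 kb). The DM one had the highest of the 3 MED1 changes, but its difference from the PU one at -1.5 kb, 0.27 (-0.19 to 0.72), had an interval that included 0.

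Sox2 has 1 SE over the gene and another far downstream. The PU subregion at +1.0 kb (chr3:34546657-34553266, 6610 bp) spans the whole of Sox2, with its promoter, coding sequence and UTRs, and an exon of the overlapping non-coding gene Sox2ot. With 324 CpGs, or 49.0 per kb, it was the most CpG-dense of the 19. Its MED1 was 1392 RPKM in Esrrb fl/fl and 1031 RPKM in Esrrb -/- ESCs (-0.43, -0.52 to -0.35), from 3908 and 1570 reads. Its H3K27ac went the other way, from 528 to 1025 RPKM (0.95, 0.90 to 1.01). A single subregion over the gene body thus had 1.35 times less MED1 and 1.94 times more H3K27ac.

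The neighbouring PU subregion at -3.1 kb (chr3:34545069-34546524, 1456 bp), inside Sox2ot but over none of its exons, stood apart from it. Its H3K27ac was 167 RPKM in Esrrb fl/fl and 75.5 RPKM in Esrrb -/- ESCs (-1.13, -1.44 to -0.84), the only H3K27ac value of the 19 that was lower beyond its counting interval. The difference in H3K27ac change between these neighbours, 132 bp apart, was -2.10 (-2.40 to -1.80). Its MED1 was 393 and 373 RPKM (-0.08, -0.40 to 0.24), an interval that included 0. Among the 183 PU subregions it had low signal to begin with, at percentile 4.92 for H3K27ac in Esrrb fl/fl ESCs.

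The downstream SE holds 4 subregions in an intergenic stretch at least 82650 bp from Sox2, which includes the place of the Sox2 control region, the enhancer cluster on which Sox2 transcription in ESCs largely depends. At the DM subregion at +106.4 kb (chr3:34653920-34656673, 2754 bp), MED1 was 1703 RPKM in Esrrb fl/fl and 1076 RPKM in Esrrb -/- ESCs (-0.66, -0.79 to -0.54). At the PU subregion at +107.9 kb (chr3:34656742-34656937, 196 bp), it was 4393 and 2447 RPKM (-0.84, -1.16 to -0.53), the highest level of all 183 PU subregions in Esrrb fl/fl ESCs, though over a short region with 364 and 110 reads. At the DM subregion at +109.8 kb (chr3:34657188-34660320, 3133 bp), it was 1619 and 968 RPKM (-0.74, -0.87 to -0.62). These adjoining subregions, each with the ESRRB core, had MED1 lower by 1.58 to 1.79 times, and their intervals overlapped one another.

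In the same 3 subregions the deposited H3K27ac values were higher in Esrrb -/- ESCs. It was 604 and 760 RPKM at +106.4 kb (0.33, 0.25 to 0.41), 536 and 1005 RPKM at +107.9 kb (0.91, 0.60 to 1.21) and 694 and 924 RPKM at +109.8 kb (0.41, 0.34 to 0.48). The PU subregion was above its DM neighbours on either side, with a difference of -0.58 (-0.89 to -0.27) for the DM subregion at +106.4 kb minus the PU one and of 0.50 (0.19 to 0.80) for the PU one minus the DM subregion at +109.8 kb. H3K27ac at the PU subregion was above 0 on all 3 scales, whereas at the DM ones it was -0.15 and -0.068 when scaled to the summed reads of the 671 subregions. The fourth subregion, the DM one at +85.4 kb (chr3:34634033-34634653, 621 bp), held no ESRRB core and was close to level in both marks, with MED1 at 406 and 385 RPKM (-0.08, -0.57 to 0.40) and H3K27ac at 230 and 248 RPKM (0.11, -0.19 to 0.41).

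The SE over Sox2 and the downstream one both had lower MED1, with summed changes of -0.41 and -0.69. The downstream change was the larger in size, the SE over the gene being above it by 0.29 (0.17 to 0.40). In H3K27ac the order was 0.88 over the gene and 0.38 downstream, a difference of 0.50 (0.43 to 0.57). By MED1 level, the downstream SE ranked 29 among the 223 SEs in Esrrb fl/fl and 43 in Esrrb -/- ESCs, and the SE over Sox2 ranked 54 and 53.

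**Figure D2:**
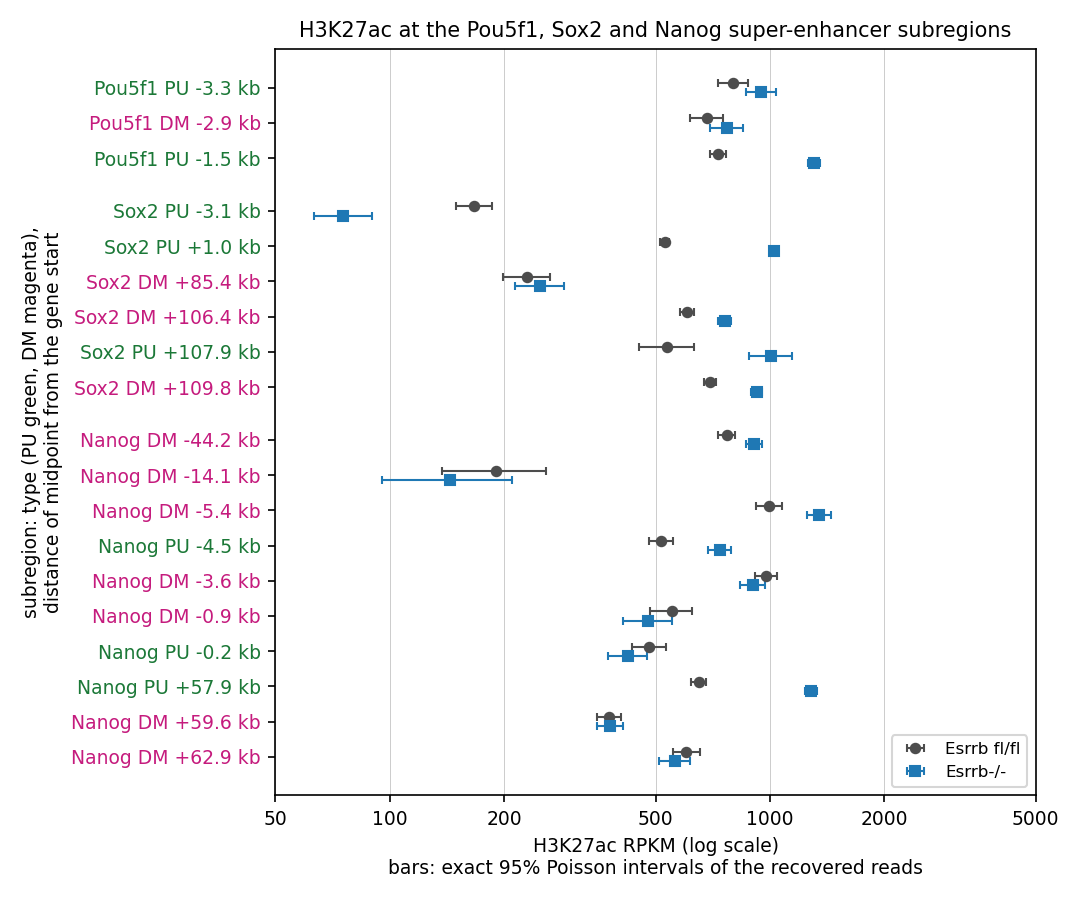
H3K27ac RPKM (x axis, log scale) in Esrrb fl/fl (grey circles) and Esrrb -/- ESCs (blue squares) at the 19 subregions (y axis), with exact 95% Poisson intervals of the recovered reads. The Sox2 PU subregion at -3.1 kb is the only point far to the left in Esrrb -/- ESCs (167 to 75.5 RPKM), and the largest shifts to the right are at PU subregions.

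The subregions assigned to Nanog fall into 3 SEs, and only the middle one adjoins the gene. The first is a single DM subregion at -44.2 kb (chr6:122612571-122614022, 1452 bp), an intergenic piece whose nearest coding gene is Dppa3, a maternal factor also expressed in naive ESCs, 32281 bp away. It had the lowest MED1 change of the 19, from 1028 RPKM in Esrrb fl/fl to 541 RPKM in Esrrb -/- ESCs (-0.92, -1.17 to -0.68), or 1.90 times less. H3K27ac there was 769 and 909 RPKM (0.24, 0.14 to 0.34). It held the ESRRB core and had lower MED1 on all 3 scales. The same was seen at the 3 adjoining subregions downstream of Sox2 and at Nanog +62.9 kb. Without the core, MED1 was also lower on all 3 scales at Sox2 +1.0 kb, the Nanog promoter and Nanog -5.4 kb. Nanog +59.6 kb held 2 cores, and its MED1 change was 0.11 as deposited. Whether the core bears on the MED1 change was not tested. The H3K27ac change at -44.2 kb was -0.083 when scaled to mapped read pairs and -0.24 when scaled to the summed reads of the 671 subregions. Among the 223 SEs its MED1 change ranked 42 from the lowest.

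The middle SE runs from -14.1 kb to the Nanog promoter in 6 subregions, with a summed MED1 change of -0.24 (-0.37 to -0.10). The PU subregion at -0.2 kb (chr6:122657045-122657601, 557 bp) covers the Nanog start and part of its first exon and 5′ UTR. Its MED1 was 1511 RPKM in Esrrb fl/fl and 921 RPKM in Esrrb -/- ESCs (-0.71, -1.03 to -0.41), from 357 and 118 reads, and its H3K27ac was 480 and 422 RPKM (-0.18, -0.41 to 0.04). This was the only subregion of the middle SE with MED1 lower beyond the counting interval, and it held no ESRRB core.

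The Nanog promoter subregion held the SOX-POU composite, the paired site through which SOX2 and OCT4 bind DNA side by side, searched on both strands as TTGT, any base and ATGCAAA. It was the only one of the 19 with this string, which 7 of all 671 subregions (1.04%) and 4 of the 310 from 500 to 1500 bp (1.29%) contained. How this string relates to MED1 was not tested. Its POU part, ATGCAAA, is by construction counted within the composite, and alone it occurred in 3 of the 19 (15.8%) and 161 of all 671 (24.0%). The other matches lay in the Sox2 PU subregion at +1.0 kb, just before the Sox2 start, and in the Nanog DM subregion at -5.4 kb. They are shown because 2 of the 3 lie at the promoters of Sox2 and Nanog themselves, with the searched letters in capitals.
Nanog PU -0.2 kb, composite, chr6:122657432-122657443, minus strand: catggacaTTGTAATGCAAAagaagctg
Sox2 PU +1.0 kb, POU part, chr3:34548818-34548824, plus strand: gccccctttcATGCAAAaccctctggc
Nanog DM -5.4 kb, POU part, chr6:122652200-122652206, plus strand: tcctttattcATGCAAAgcgagtactg

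A second PU subregion of the middle SE, at -4.5 kb (chr6:122652503-122653478, 976 bp), had the highest MED1 of the Nanog subregions in Esrrb fl/fl ESCs. Its MED1 was 1625 RPKM in Esrrb fl/fl and 1495 RPKM in Esrrb -/- ESCs (-0.12, -0.31 to 0.07), and its H3K27ac was 517 and 737 RPKM (0.51, 0.37 to 0.66). The 2 PU subregions of this SE, 4.5 and 0.2 kb upstream, thus differed in both marks, MED1 being lower at the promoter one and H3K27ac higher at the other.

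The 4 DM subregions of the middle SE had MED1 intervals that all included 0. At -5.4 kb (chr6:122651920-122652374, 455 bp), MED1 was 793 and 621 RPKM (-0.35, -0.79 to 0.08), while H3K27ac was 995 and 1347 RPKM (0.44, 0.28 to 0.59). At -3.6 kb (chr6:122653547-122654170, 624 bp), MED1 was 586 and 550 RPKM (-0.09, -0.50 to 0.31) and H3K27ac was 977 and 900 RPKM (-0.12, -0.27 to 0.03). These DM subregions on either side of the PU one at -4.5 kb were among the richest DM subregions in H3K27ac in Esrrb fl/fl ESCs, at percentiles 98.8 and 98.4 of the 488. At -0.9 kb (chr6:122656425-122656742, 318 bp), MED1 was 497 and 588 RPKM (0.24, -0.35 to 0.82) and H3K27ac was 551 and 477 RPKM (-0.21, -0.49 to 0.08). At -14.1 kb (chr6:122643304-122643462, 159 bp), MED1 was 149 and 275 RPKM (0.88, -0.54 to 2.30) and H3K27ac was 190 and 144 RPKM (-0.40, -1.15 to 0.34). With 10 MED1 reads in each genotype, no difference was detectable at this depth at -14.1 kb, although the value was the highest MED1 change of the 19.

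The third Nanog SE lies within the gene Slc2a3, which encodes the glucose transporter GLUT3, and overlaps none of its exons, so that its place near Nanog rests on the window alone. Its subregions went different ways. The PU subregion at +57.9 kb (chr6:122714409-122716334, 1926 bp) had more of both marks in Esrrb -/- ESCs as deposited, with MED1 at 1214 and 1711 RPKM (0.49, 0.36 to 0.63) and H3K27ac at 649 and 1281 RPKM (0.98, 0.89 to 1.07), the highest H3K27ac change of the 19. Scaled to mapped read pairs its MED1 change was -0.28. The DM subregion at +59.6 kb (chr6:122716406-122717803, 1398 bp) was close to level, with MED1 at 735 and 792 RPKM (0.11, -0.12 to 0.33) and H3K27ac at 378 and 380 RPKM (0.0081, -0.15 to 0.16). The DM subregion at +62.9 kb (chr6:122720096-122720781, 686 bp) had less MED1, at 1261 and 861 RPKM (-0.55, -0.84 to -0.26), with H3K27ac at 603 and 562 RPKM (-0.10, -0.28 to 0.08). Along this SE, as deposited, MED1 was therefore higher at one subregion, level at the next and lower at the last, and H3K27ac was higher only at the first.

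Between the 3 Nanog SEs the MED1 change differed beyond counting error in each pair. The subregion at -44.2 kb was below the SE within Slc2a3 by -1.17 (-1.43 to -0.90) and below the middle SE by -0.69 (-0.96 to -0.42), and the middle SE was below the one within Slc2a3 by -0.48 (-0.65 to -0.31). The near-level sum of the Nanog locus is thus made of SEs at -0.92, -0.24 and 0.24. In H3K27ac the subregion at -44.2 kb and the middle SE differed by 0.066 (-0.06 to 0.19), and both were below the SE within Slc2a3, by -0.38 (-0.51 to -0.26) and -0.45 (-0.55 to -0.35).

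**Figure D3:**
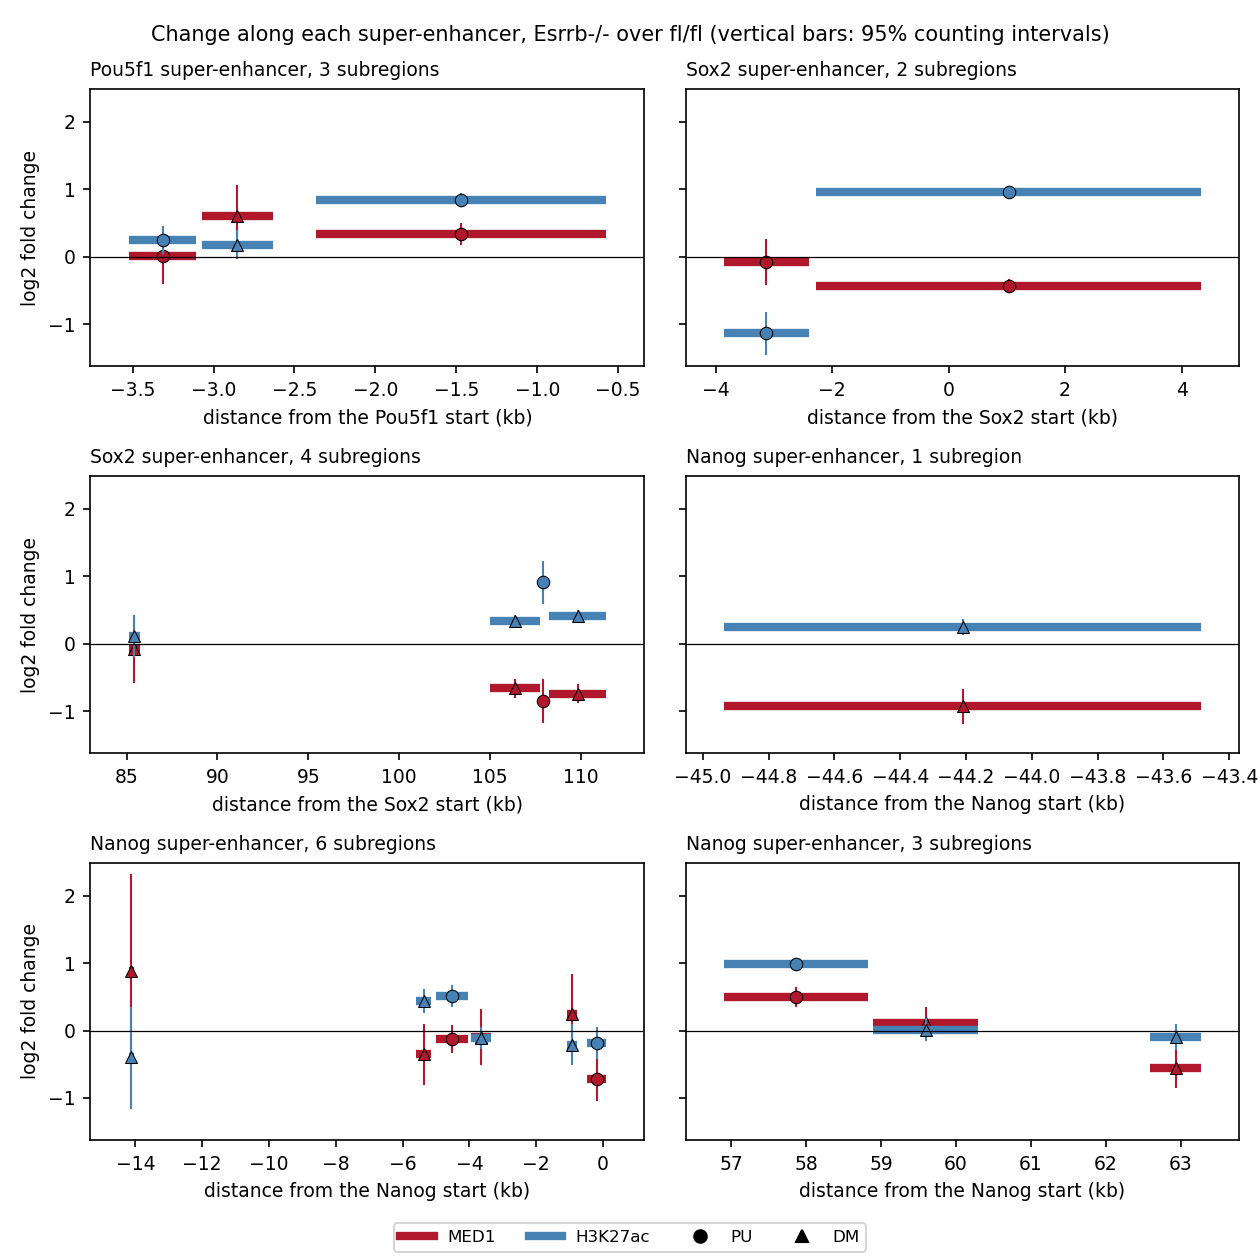
Log2 fold change in Esrrb -/- over Esrrb fl/fl ESCs (y axis) of MED1 (red) and H3K27ac (blue) against distance from the gene start in kb (x axis), in 1 panel for each of the 6 SEs, with horizontal bars for the extent of each subregion, circles for PU, triangles for DM and vertical 95% counting intervals. On the deposited scale the colours part widely over Sox2, in its downstream SE and at Nanog -44.2 kb (-0.92 for MED1 and 0.24 for H3K27ac), and lie close together at several of the other Nanog subregions.

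PU and DM subregions were compared within the 4 SEs that hold both types, with the reads of each type summed. For H3K27ac, the DM change was below the PU change in all 4, by -0.56 (-0.77 to -0.35) at Pou5f1, -0.54 (-0.84 to -0.24) downstream of Sox2, -0.22 (-0.37 to -0.06) in the middle Nanog SE and -1.02 (-1.16 to -0.87) within Slc2a3. The summed H3K27ac change was thus more positive in the PU than in the DM subregions of each of these SEs. In the middle Nanog SE this did not hold for each subregion. The PU one at -0.2 kb was at -0.18 and the DM one at -5.4 kb at 0.44. For MED1 the order was not shared. The DM change was above the PU change, with intervals that included 0, at Pou5f1 (0.31, -0.14 to 0.76), downstream of Sox2 (0.16, -0.16 to 0.48) and in the middle Nanog SE (0.22, -0.08 to 0.51), and below it within Slc2a3 (-0.65, -0.87 to -0.43). The differences within SEs do not depend on the scaling of the libraries.

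Over the 19 subregions, MED1 was lower by at least 1.5 times in Esrrb -/- ESCs at 5 (26.3%), compared with 26.8% of all 671 subregions, and higher by that much at 2, compared with 14.8%. The 5 were the 3 adjoining subregions downstream of Sox2, Nanog -44.2 kb and the Nanog promoter, and the 2 were Pou5f1 -2.9 kb and Nanog -14.1 kb, both with few reads. The share with less MED1 was therefore close to that of all SE subregions. By type, MED1 was lower by that fold at 2 of the 8 PU subregions (16.4% of all PU) and at 3 of the 11 DM subregions (30.7% of all DM). The median MED1 change was -0.09, compared with -0.14 over all 671. It was -0.098 for the PU and -0.090 for the DM subregions, compared with -0.035 and -0.18 over all PU and DM subregions. Beyond its counting interval MED1 was lower at 7 of the 19 (39.5% of all 671) and higher at 3 (20.6% of all). Scaled to mapped read pairs it was lower at 16 (75.7% of all) and higher at 0 (2.68% of all), and scaled to the summed reads of the 671 subregions it was lower at 6 (25.8% of all) and higher at 4 (34.3% of all).

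H3K27ac was higher by at least 1.5 times at 4 of the 19, compared with 30.6% of all 671 subregions, and lower by that much at 1, the Sox2 subregion at -3.1 kb, compared with 15.1%. The 4 were the PU subregions Pou5f1 -1.5 kb, Sox2 +1.0 kb, Sox2 +107.9 kb and Nanog +57.9 kb. Of the 8 PU subregions 4 thus passed this fold, compared with 54.6% of all 183 PU subregions, and of the 11 DM subregions 0 did, compared with 21.5% of all 488. The median H3K27ac change was 0.24 over the 19, as over all 671. It was 0.68 for the PU and 0.11 for the DM subregions, compared with 0.66 and 0.12 over all PU and DM subregions. Beyond its counting interval H3K27ac was higher at 10 of the 19 (53.4% of all 671) and lower at 1 (26.4% of all). Scaled to mapped read pairs it was higher at 6 (34% of all) and lower at 6 (43.5% of all), and scaled to the summed reads of the 671 subregions it was higher at 4 (26.8% of all) and lower at 12 (53.5% of all).

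The marks were then set against each other. As deposited, lower MED1 together with higher H3K27ac, both beyond their counting intervals, was seen at 5 of the 19 subregions (26.3%), compared with 18.3% of all 671. Of these 4 were among the 6 Sox2 subregions, and the other was Nanog -44.2 kb. Scaled to mapped read pairs the count was 6 of the 19 (24.3% of all 671), 3 of them at Sox2, and scaled to the summed reads of the 671 subregions it was 2 (4.17% of all). Those 2, the Sox2 PU subregions at +1.0 and +107.9 kb, showed lower MED1 with higher H3K27ac on all 3 scales. The MED1 change was below the H3K27ac change at 13 of the 19 as deposited (68% of all 671), at 16 scaled to mapped read pairs (83.3% of all) and at 6 scaled to the summed reads of the 671 subregions (33.5% of all). The MED1 minus H3K27ac change was lowest at Sox2 +107.9 kb, at -1.75, and at Sox2 +1.0 kb, at -1.39, an order that is the same on each scale.

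**Figure D4:**
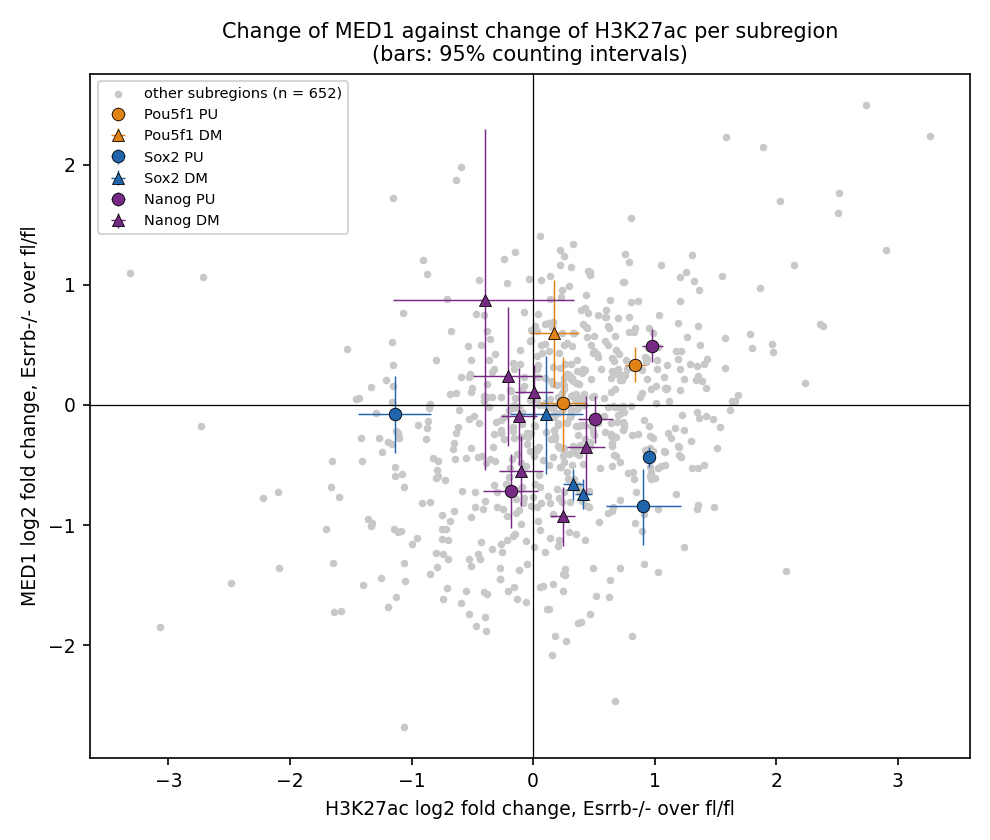
Log2 fold change of MED1 (y axis) against that of H3K27ac (x axis), Esrrb -/- over Esrrb fl/fl ESCs, for the 652 other subregions (grey) and the Pou5f1 (orange), Sox2 (blue) and Nanog (purple) subregions, circles for PU and triangles for DM, with 95% counting intervals. Of the 6 Sox2 points, 4 lie clear of both axes at lower right as deposited, and the 19 points lie inside the grey cloud.

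The subregions that held the ESRRB core were set against those that did not. Among the 6 with it the median MED1 change was -0.70, and MED1 was lower beyond its counting interval at 5, with Nanog +59.6 kb as the exception. Among the 13 without it the median was -0.08, and MED1 was lower beyond its interval at 2, the Sox2 gene subregion at +1.0 kb and the Nanog promoter. All medians and counts by motif here are as deposited. Scaled to mapped read pairs, MED1 was lower beyond its interval at 16 of the 19 subregions (75.7% of all 671). Over all subregions the medians were -0.36 in the 236 with the core and 0.00028 in the 435 without, and MED1 was lower beyond its interval at 58.1% and 29.4% of them. The median length was 1425 bp for the 6 and 621 bp for the 13, and longer subregions have more reads and narrower intervals. Type differed too, with Sox2 +107.9 kb the only PU subregion among the 6. Over all DM subregions the medians were -0.47 with and 0.031 without the core, and MED1 was lower beyond its interval at 64.1% and 27.6%. Over all PU subregions the medians were -0.077 and -0.024, and MED1 was lower at 36.5% and 33.6%. The parts of length and type in the difference with and without the core were not tested. The KLF core GGGTGTG, for comparison, occurred in 7 of the 19 (36.8%) and in 228 of all 671 (34.0%). MED1 was lower beyond its interval at 4 of the 7 with it and at 3 of the 12 without. Over all subregions it was lower at 46.5% of the 228 with the KLF core and at 35.9% of the 443 without. The subregions share libraries, and neighbours share an SE, so neither count is one of independent observations.

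**Figure D5:**
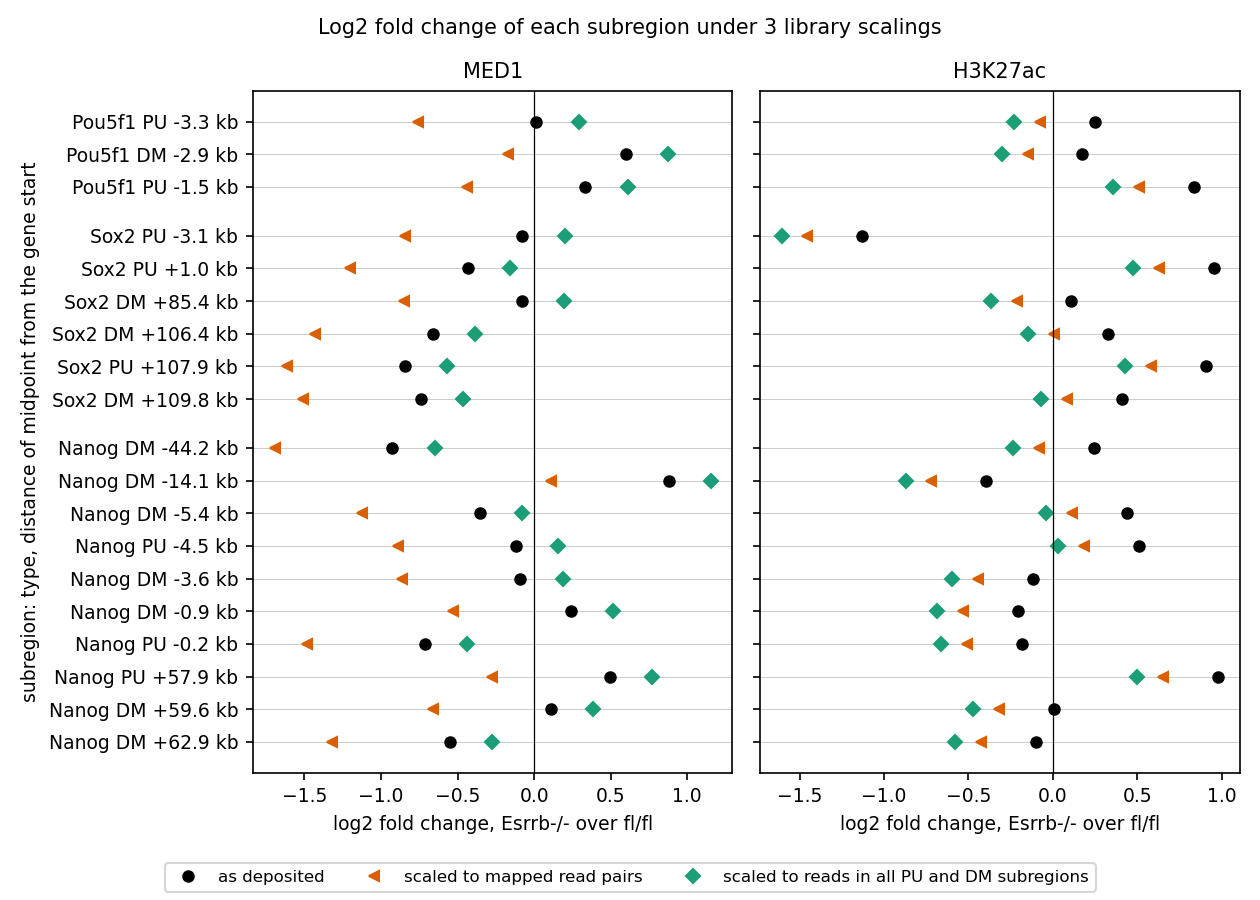
Log2 fold change of MED1 (left) and H3K27ac (right) in Esrrb -/- over Esrrb fl/fl ESCs (x axis) at the 19 subregions (y axis), as deposited (black), scaled to mapped read pairs (orange) and scaled to the summed reads of the 671 subregions (green). The spacing between subregions is the same on each scale, and the 3 adjoining subregions downstream of Sox2, Sox2 +1.0 kb, Nanog -44.2 kb, the Nanog promoter, Nanog +62.9 kb and Nanog -5.4 kb lie below 0 for MED1 on all 3.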

How the data were processed

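The authors deposited 4 tables, 1 for MED1 and 1 for H3K27ac in each genotype, with 1 RPKM value for each of 671 PU or DM subregions in mm9 coordinates. Per the labels, reads were processed with Trimmomatic, Bowtie2 and Picard against mm9, and how the replicates were combined, whether input was subtracted and which total entered the RPKM are not given in the sources used here. Input was sequenced but no value of it is in these tables, and if it was subtracted, the recovered reads are net of it and the intervals are too narrow. The tables were joined on chromosome, start, end and type. Within each table the RPKM multiplied by length (end minus start) fell on whole multiples of 1 step for 100% of subregions within 0.01 read, and the smallest such whole numbers were taken as the reads (implying totals of 424897 and 230504 for MED1 and 1.40e+06 and 1.18e+06 for H3K27ac in Esrrb fl/fl and Esrrb -/- ESCs, far below the mapped read pairs), so that a larger common factor would only narrow the intervals.

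Log2 fold changes used a pseudocount of 1 RPKM, with no filter on low values. Their 95% intervals are exact conditional (Clopper-Pearson) intervals of the read ratio, those of levels are exact Poisson intervals, and those of differences between changes use the normal approximation to log counts. All cover counting error only, since PCR copies and the spread between replicates are not in them. SE membership was taken from the supplementary list of subregions. Genes came from GENCODE M1 on NCBIM37, which is mm9, where 100% of subregion starts fell on a CpG when read 1-based. Promoter tables of another build were not used. The members, motifs and comparisons were chosen with earlier results of these data known, and all subregions in the windows are named. The interval code was tested on simulated data. Intervals were computed with scipy 1.17.1, sequences were read with pysam 0.24.0 and figures were drawn with matplotlib 3.10.9. The sequence of 1 ESRRB core match is not reported here, and KLF matches were only counted.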

Additional observations from a re-analysis of the deposited data

How the results depend on the processing

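No paired analysis was possible because the deposited columns are pooled over replicates and carry no replicate number, and for the same reason no replicate could be left out. A pseudocount of 0.1 or 10 RPKM kept every log2 fold change within its counting interval and left every count by fold unchanged. Scaled to mapped read pairs, the summed MED1 change was -0.45 at Pou5f1, which turned its sign, -1.32 at Sox2 and -0.84 at Nanog, MED1 was lower by 1.5 times at 14 subregions and higher at 0, the summed H3K27ac change was 0.34, 0.32 and 0.065 in the same order, and H3K27ac was lower by 1.5 times at 2 and higher at 2. Among changes whose counting interval left out 0, the sign of MED1 turned at Pou5f1 -2.9 kb (-0.17), Pou5f1 -1.5 kb (-0.44) and Nanog +57.9 kb (-0.28), and that of H3K27ac at Pou5f1 -3.3 kb (-0.077) and Nanog -44.2 kb (-0.083). A further 3 MED1 and 3 H3K27ac changes whose interval included 0 turned as well. Scaled to the summed reads of the 671 subregions, the MED1 sums were 0.60, -0.28 and 0.20 with 1 subregion lower and 4 higher by 1.5 times, and the H3K27ac sums were 0.18, 0.16 and -0.089, the last with its sign turned, with 5 lower and 0 higher. Among changes whose interval left out 0, H3K27ac signs turned at Pou5f1 -3.3 kb (-0.23), Sox2 +106.4 kb (-0.15), Sox2 +109.8 kb (-0.068), Nanog -44.2 kb (-0.24) and Nanog -5.4 kb (-0.042), and 4 MED1 and 3 H3K27ac changes whose interval included 0 turned as well. With only the 13 subregions of at least 500 bp, MED1 was higher by 1.5 times at 0, H3K27ac at Pou5f1 rested on 1 subregion (0.84), and the median difference of DM from PU within an SE for MED1, 0.19 over 4 SEs, was -0.22 over the 2 that still held both types. With subregions below the 25th percentile of mean level left out, MED1 was higher by 1.5 times at 1, H3K27ac was lower at 0, and the H3K27ac sum at Sox2 was 0.68. The differences between subregions, SEs and loci are ratios of reads from the same libraries, which neither the scaling nor the pseudocount enters. Depth limited MED1 most, with a median of 125 reads per subregion in Esrrb -/- ESCs.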
